A study of Caenorhabditis elegans with 4 samples.

Results

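The sites described here are 230 places in the Caenorhabditis elegans genome where the LAG-1 immunoprecipitation (IP) with a FLAG antibody and the first of the IPs with a GFP antibody both gave a peak over low background. They were taken from 2121 deposited peaks in all. The FLAG library, called FLAG 1, gave 875 of these, the library the labels number GFP 2 gave 847, and GFP 3 gave 399. A peak counted as low background where the local background of the authors' peak caller was at most 3 times the mean tag depth of the genome, which kept 649 FLAG 1 peaks, 565 GFP 2 peaks and 76 GFP 3 peaks. A FLAG 1 peak became a shared site when it overlapped a low-background GFP 2 peak by 1 bp or more. The share of FLAG 1 peaks that did so was 35.4% (230 of 649), and 40.0% of the GFP 2 peaks (226 of 565) lay on the other side of these overlaps. The sites were chosen by measured values, the overlap and the background of peaks in FLAG 1 and GFP 2, so their folds, pileups, widths and summits in FLAG 1 and GFP 2 are given as a description. GFP 3 had no part in the choice.

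All 4 libraries came from whole animals of the Bristol strain, synchronised by bleaching and grown to the L4 larval stage on plates of NA22 bacteria. The antibody was FLAG in 1 library, GFP in 2 libraries and none in the input DNA library. The labels used here do not describe how LAG-1 was tagged, and a library from untagged worms was not analysed here. Whole animals mix all tissues, so a weak site in every cell and a strong site in a few cells cannot be told apart. After duplicate removal FLAG 1 kept 12186235 tags, GFP 2 kept 6858855, GFP 3 kept 9404288 and the shared input kept 20457188.

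LAG-1 is the worm member of the CSL family (CBF1/RBPJ, Suppressor of Hairless, LAG-1), the DNA-binding proteins of the Notch pathway. The worm Notch receptors LIN-12 and GLP-1 are cleaved after binding a ligand, and the freed intracellular domain enters the nucleus and joins LAG-1 and the coactivator SEL-8 on DNA to switch on target genes. In worms the pathway is known for keeping germline stem cells in the stem state and for cell fate choices such as those of the vulval precursors. Sites are named here by chromosome and position in the ce10 build, 1-based, without the genes around them.

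The shared sites covered a wide range of strength. Fold enrichment, the authors' ratio of pileup plus 1 to background plus 1 at the main summit of a peak, ran from 2.06 to 11.3 in FLAG 1, with a median of 3.30 and quartiles of 2.81 and 5.09. In GFP 2 it ran from 2.44 to 19.8, with a median of 4.61 and quartiles of 3.69 and 6.08. Pileup, the number of extended tags over the summit, had a median of 31 in FLAG 1 (range 19 to 106) and 27.5 in GFP 2 (range 14 to 116). The upper ends are the highest pileups that 1 tag per position and strand allows, and 12 sites reached 80% of that ceiling in FLAG 1 and 9 in GFP 2. The background at the site was within 2% of the genome mean at 116 of the 230 sites in FLAG 1 and at 94 in GFP 2. Low-background peaks seen in one list without a partner had lower median folds, 3.09 for 419 in FLAG 1 and 3.32 for 339 in GFP 2.

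How often a peak was shared rose with its fold, more steeply in GFP 2. Among the low-background GFP 2 peaks cut into 4 equal groups by fold, 19.0%, 22.7%, 35.5% and 83.0% were shared, from the weakest group to the strongest. In FLAG 1 the same shares were 28.2%, 32.1%, 34.0% and 47.5%. Above 6-fold, 53 of 56 GFP 2 peaks had a FLAG 1 partner and 37 of 50 FLAG 1 peaks had a GFP 2 partner. Peaks without a partner mostly lay far from any low-background peak of the other list: only 9 of the 419 in FLAG 1 and 10 of the 339 in GFP 2 had one within 100 bp, and the median gap was 42647 and 26293 bp. These shares use the same lists as the rule and carry no test.

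The next question was how often the library left out of the choice, GFP 3, listed the same sites. GFP 3 had a peak at 62 of the 230 shared sites (26.96%, 95% Wilson interval 21.6 to 33.0), all of low background. The background for that share is 10.2% of all low-background FLAG 1 peaks (66 of 649) and 11.9% of those of GFP 2 (67 of 565). Of the 419 FLAG 1 peaks without a GFP 2 partner, 4 had a GFP 3 peak (0.955%, interval 0.372 to 2.43). Of the 339 GFP 2 peaks without a FLAG 1 partner, 6 did (1.77%, interval 0.814 to 3.81). Seen from GFP 3, 63 of its 76 low-background peaks overlapped a shared site, and of the other 13 only 1 touched no low-background peak of FLAG 1 or GFP 2. The intervals cover counting error over sites alone. No test of these differences was made, because each list is 1 library, all lists share 1 input, and sites of a library are not replicates.

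To order the sites, each was given the mean of its percentile of fold among the low-background FLAG 1 peaks and its percentile among those of GFP 2. In the strongest 57 sites by this rank, 25 had a GFP 3 peak (43.9%, interval 31.8 to 56.7). In the next 58 it was 22 (37.9%, 26.6 to 50.8), in the following 57 it was 12 (21.1%, 12.5 to 33.3), and in the weakest 58 it was 3 (5.17%, 1.77 to 14.1). The lowest fold among the low-background GFP 3 peaks was 2.33. Where its background was at the genome mean, the lowest fold was 2.83 and the lowest pileup 16. The same values were 2.75 and 14 in GFP 2, and 2.44 and 19 in FLAG 1. The weakest 5 sites, all without a GFP 3 peak, had folds of 2.30 to 2.54 in FLAG 1 and 2.44 to 2.88 in GFP 2. Of the strongest 57 sites, 32 also had no GFP 3 peak. Among the 143 sites with both folds above 3, the shares above and below the median rank were 39.4% (28.9 to 51.1) and 31.9% (22.3 to 43.4), intervals that overlap.

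**Figure D1:**
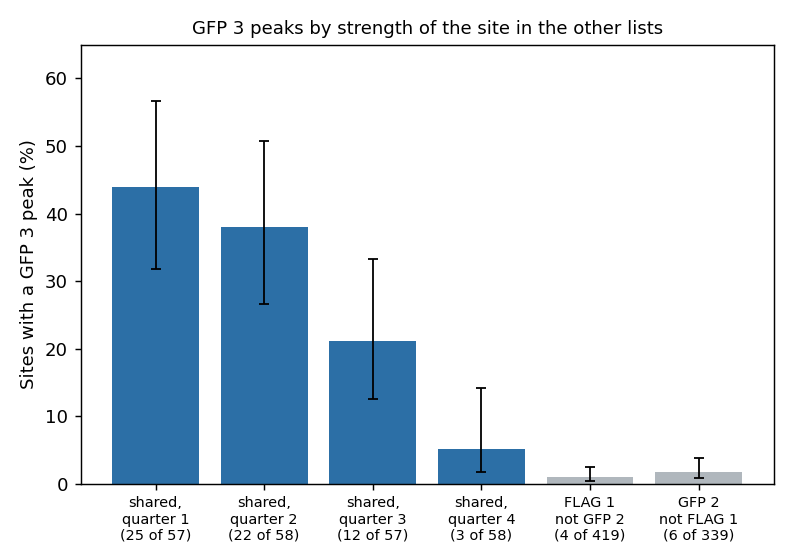
Share of sites with a GFP 3 peak (y axis, percent) for the shared sites in 4 groups by rank of fold, strongest first, and for low-background peaks of FLAG 1 or GFP 2 without a partner. Bars are shares, lines are 95% Wilson intervals (counting error only), and the counts stand under each bar; the share falls from 43.9% to 5.17% over the shared sites and is 0.955% and 1.77% in the single-list peaks.

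Width divided the strongest sites. Among the strongest 57, 23 had a peak no wider than 150 bp in both FLAG 1 and GFP 2, and these are called narrow here. The limit was set after seeing the widths: taking the larger of both widths at each of these sites, the widest narrow site had 136 bp and the next wider one 226 bp. None of the 23 narrow sites had a GFP 3 peak (0%, interval 0 to 14.3), against 25 of the 34 wider ones (73.5%, interval 56.9 to 85.4). As part of the strongest group by rank, these narrow sites had high folds by selection. Their FLAG 1 fold ran from 5.01 to 10.6 with a median of 6.85, against a median of 5.66 at the wider sites. Their GFP 2 fold ran from 4.29 to 8.73 with a median of 5.53, against 8.56 at the wider sites. Among wider sites of any rank whose GFP 2 fold lay in that same range, 36 of 84 had a GFP 3 peak (42.9%, interval 32.8 to 53.5), and among those whose FLAG 1 fold lay in the range of the narrow ones, 19 of 30 did (63.3%, interval 45.5 to 78.1). None of these sets matched the narrow sites in both folds: the 84 had a median FLAG 1 fold of 3.30, and the 30 a median GFP 2 fold of 8.06.

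The 23 narrow sites of the strongest group also differed in shape and in the balance of the libraries. The median width at the 23 narrow sites was 82 bp in FLAG 1 and 71 bp in GFP 2, close to the fragment lengths of 53 and 58 bp that the caller used and that set its smallest peak. At the 34 wider sites it was 363.5 bp and 508 bp. The main summits of FLAG 1 and GFP 2 lay within 6 bp of each other at all 23 narrow sites and at 14 of the 34 wider ones. The width limit itself bounds this distance at narrow sites. A single FLAG 1 summit was present at 22 of the 23, against 8 of the 34. FLAG 1 had the higher fold at 19 of the 23 narrow sites, whereas GFP 2 had it at 31 of the 34 wider ones. The median ratio of the GFP 2 fold to the FLAG 1 fold was 0.812 at the narrow and 1.62 at the wider sites. Weaker narrow sites did not share this balance. Over the 57 narrow sites of any rank, FLAG 1 had the higher fold at 30 and GFP 2 at 27, with a median ratio of 0.984. At the 18 narrow sites of the weakest group GFP 2 had it at 16. The median ratio there was 1.26, against 1.21 at the 40 wider ones, with summits a median of 41 and 41.5 bp apart. Narrow sites lay on X in 10 of 23 cases and wider ones in 6 of 34. Folds of different lists also depend on depth and fragment length, so the ratio is set between the classes and not read as an antibody's strength.

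**Figure D2:**
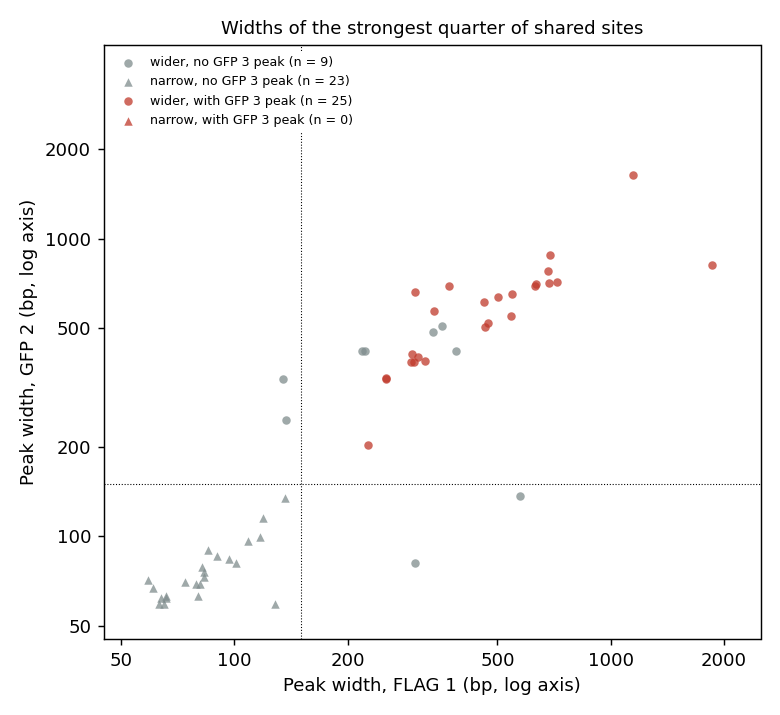
Peak width in FLAG 1 (x axis, bp, log scale) against peak width in GFP 2 (y axis, bp, log scale) at the strongest 57 shared sites. Triangles are narrow sites (at most 150 bp in both lists, dotted lines), circles wider ones, and red marks a GFP 3 peak; the 23 narrow sites form a group at the lower left with no GFP 3 peak.

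Over all 230 sites, 57 were narrow and 173 wider. A GFP 3 peak stood at 1 of the 57 narrow sites (1.75%, interval 0.310 to 9.29) and at 61 of the 173 wider ones (35.3%, interval 28.5 to 42.6). The single narrow site with one lay between 1627044 and 1627175 on X. FLAG 1 showed a fold of 3.18 at this place, GFP 2 one of 3.83 and GFP 3 one of 3.49. At the wider sites the GFP 3 share climbed with the GFP 2 fold. It was 12.5% up to 4-fold (7 of 56), 28.4% from 4 to 6-fold (19 of 67), 61.8% from 6 to 10-fold (21 of 34) and 87.5% above 10-fold (14 of 16). At the narrow sites it was 1 of 26, 0 of 21 and 0 of 10 over the first 3 of these steps, and no narrow site passed 10-fold in GFP 2. The 2 sites above 10-fold without a GFP 3 peak, on IV from 6098108 to 6098305 and on I from 2914305 to 2914366, were weaker FLAG 1 peaks lying under a long GFP 2 peak that covered another, stronger site with a GFP 3 peak. Of all low-background FLAG 1 peaks above 5-fold, shared or not, 43 of 98 were no wider than 150 bp. The same held for 20 of 98 such GFP 2 peaks and 1 of 21 such GFP 3 peaks.

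**Figure D3:**
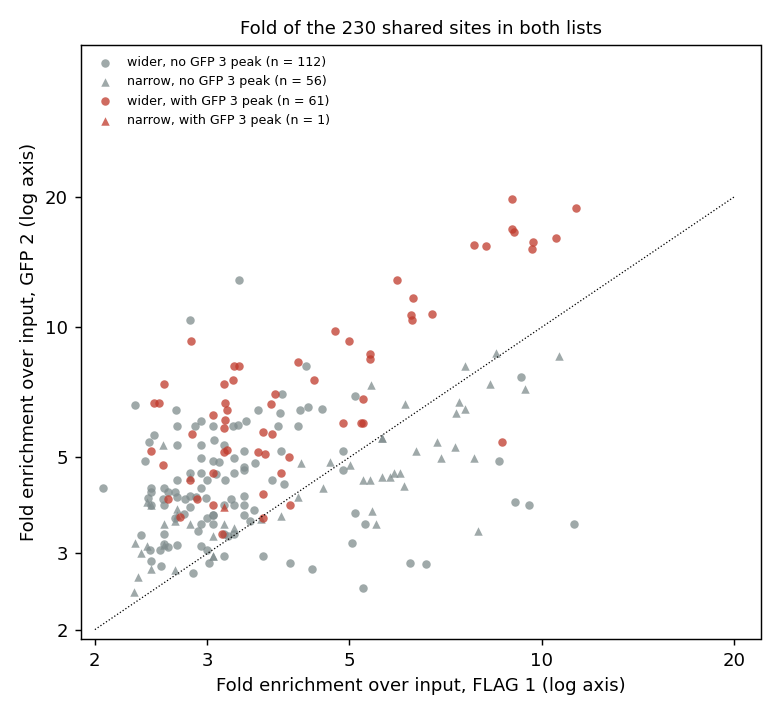
Fold enrichment in FLAG 1 (x axis, log scale) against fold enrichment in GFP 2 (y axis, log scale) at the 230 shared sites, with the dotted line at equal fold. Triangles are narrow and circles wider sites, and red marks a GFP 3 peak; above 10-fold in GFP 2, 14 of 16 sites have one, and the stronger narrow sites lie mostly under the line.

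The strongest sites with a GFP 3 peak were broad in FLAG 1 and GFP 2. The first, on I from 10587961 to 10588649, had pileups of 101, 112 and 92 in the order FLAG 1, GFP 2 and GFP 3. The GFP 2 summit lay 7 bp and the GFP 3 summit 3 bp from that of FLAG 1. The second, on V from 15133741 to 15134242, had folds of 10.5, 16.1 and 7.48 in the same order. Next came III from 9793464 to 9794147, where the FLAG 1 and GFP 3 summits fell on the same base, with pileups of 94, 106 and 90. At the X site from 14790235 to 14790862 the GFP 2 fold was the highest of all shared sites, 19.8, beside 9.0 in FLAG 1 and 5.80 in GFP 3. These lead sites were high in every library, although GFP 3 was the lower of the GFP libraries at each of them.

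The other 8 of the first 12 with a GFP 3 peak were also broad in FLAG 1 and GFP 2. On III they were 3630331 to 3630790 and 6344564 to 6345108, with pileups of 94, 107 and 53 and of 78, 81 and 52 in FLAG 1, GFP 2 and GFP 3. On V it was 13657242 to 13657789, with 79, 101 and 39, and on II 7277235 to 7277697, with 63, 83 and 25. On X they were 13104800 to 13105271, with 66, 86 and 32, and 15741303 to 15741935, with 50, 61 and 41. On I they were 14276536 to 14276829, with 54, 57 and 25, and 12483439 to 12484120, with 106, 116 and 96, the ceiling of each library. Over the 12, widths ran from 294 to 689 bp in FLAG 1 and from 386 to 884 bp in GFP 2, and the FLAG 1 and GFP 2 summits lay 1 to 27 bp apart. The GFP 3 peaks reached from 108 to 699 bp, and those at 14276536 on I (108 bp) and 13104800 on X (119 bp) were under the 150 bp that bound the narrow class in the other libraries. The GFP 2 fold exceeded the FLAG 1 fold at all 12, as it did at 179 of all 230 sites.

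The first 12 sites by rank without a GFP 3 peak mostly had another form. The first was on III from 1881074 to 1881155, only 82 bp wide, with a pileup of 86 and a fold of 10.6 in FLAG 1 and a pileup of 59 and a fold of 8.57 in GFP 2. Its summits lay 2 bp apart. On II from 878221 to 878317 the folds were 8.49 and 8.73, with summits 3 bp apart, and on I from 2179885 to 2179967 they were 9.42 and 7.20, with summits 4 bp apart. GFP 3 listed nothing at these places, whereas at the sites ranked 9, 10 and 14 it listed peaks with pileups of 32, 25 and 25.

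The remaining members of the first 12 without a GFP 3 peak were similar. On III, 8514583 to 8514665 had folds of 8.32 in FLAG 1 and 7.38 in GFP 2, with both summits on the same base, and 4394007 to 4394072 had 7.34 and 6.33. On X, 16595893 to 16596009 had 7.58 and 8.12, 2576648 to 2576728 had 7.42 and 6.71, 8326542 to 8326626 had 7.58 and 6.46, and 5283257 to 5283375 had 6.12 and 6.64. On IV, 1728442 to 1728500 had 5.404 and 7.37, and 5706864 to 5706972 had 6.85 and 5.43. The site on I from 765678 to 765980 was 303 bp wide in FLAG 1 and 81 bp in GFP 2, with folds of 9.28 and 7.67, and so fell outside the narrow class. Over these 12 the summits lay 0 to 6 bp apart, GFP 2 widths ran from 62 to 115 bp, and FLAG 1 had the higher fold at 8. The form was not general: of the 32 sites of the strongest group without a GFP 3 peak, 23 were narrow and 9 wider. Those 9 were 135 to 574 bp wide in FLAG 1 and 81 to 509 bp in GFP 2, and GFP 2 had the higher fold at 7. Over all 168 sites without a GFP 3 peak, FLAG 1 had the higher fold at 48.

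Another form joined a broad, strong FLAG 1 peak to a faint GFP 2 peak. There were 7 sites at least 500 bp wide and above 4-fold in FLAG 1 but under 4-fold in GFP 2, a group drawn after seeing the values. None had a GFP 3 peak (0 of 7, interval 0 to 35.4), and among all wider sites up to 4-fold in GFP 2, of which these are part, 7 of 56 had one (12.5%, 6.19 to 23.6). The strongest in FLAG 1, on I from 7656749 to 7657837, had a fold of 11.3 there and 3.51 in GFP 2, where it overlapped 2 short peaks. On I from 7079430 to 7080392 the folds were 9.54 and 3.87, with 3 GFP 2 peaks under 1 FLAG 1 peak, and on IV from 4468107 to 4468884 they were 9.07 and 3.95. The other 4 had FLAG 1 folds of 5.26 to 6.60 and GFP 2 folds of 2.50 to 3.50. The median ratio of GFP 2 to FLAG 1 fold over the 7 was 0.435.

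The sites where the libraries disagreed most were found from the difference of the percentiles. FLAG 1 led most on IV from 10934159 to 10934679, with folds of 5.26 in FLAG 1 and 2.50 in GFP 2, a percentile 86.1 points higher in FLAG 1. The next were V from 7432656 to 7433420 (6.60 and 2.83), V from 9342542 to 9343554 (6.21 and 2.86), II from 8744686 to 8745118 (4.38 and 2.77) and X from 4007876 to 4008075 (4.04 and 2.86). None of these 5, all under 4-fold in GFP 2, had a GFP 3 peak. GFP 2 led most between 6737706 and 6737919 on X, where the fold was 2.31 in FLAG 1 and 6.60 in GFP 2, and on II from 7280603 to 7280836, with 2.47 and 6.67. The other 3, X from 16929798 to 16929879, IV from 11195550 to 11195603 and X from 14525680 to 14525788, were weak FLAG 1 peaks with folds of 2.43, 2.52 and 2.57 that shared a GFP 2 peak with another site. Of the 5 led by GFP 2, those on II, on IV and on X from 14525680 had a GFP 3 peak, and the other sites on X had none. The median absolute difference over all sites was 18.8 percentile points.

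Across the sites, the folds of the libraries rose together only in part. Over the 230 sites, Pearson's r between the log2 folds of FLAG 1 and GFP 2 was 0.52 and Spearman's rho 0.45, and at the 79 sites where both backgrounds were at the genome mean they were 0.54 and 0.46. At the 62 sites with a GFP 3 peak, the log2 folds of FLAG 1 and GFP 2 gave an r of 0.79 and a rho of 0.67, and at the 168 without one 0.36 and 0.37. Those 168 pooled 56 narrow and 112 wider sites. By width, rho was 0.78 at all 57 narrow sites, of which 1 had a GFP 3 peak, and 0.38 at the 173 wider ones. With GFP 3 itself, r was 0.66 for FLAG 1 and 0.70 for GFP 2 (rho 0.62 and 0.66, n = 62). At those 62 sites GFP 3 folds ran from 2.33 to 15.5 with a median of 3.99. The GFP 2 fold exceeded the FLAG 1 fold at 59 of the 62, at 120 of the 168 without a GFP 3 peak and at 179 of all 230. These are descriptions over sites that share the input library and its local background, and they carry no p.

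Summits marked the same place most closely in the strongest group of rank. The median distance between the main summits of FLAG 1 and GFP 2 was 30 bp, with quartiles of 6.25 and 66 bp. At 157 of the 230 sites (68.3%) it was at most 50 bp. From the strongest group of rank to the weakest, the medians were 4, 26, 56 and 41.5 bp, and the shares within 10 bp were 73.7%, 27.6%, 17.5% and 13.8%. Within the strongest group the median was 3 bp at the 23 narrow sites and 7 bp at the 34 wider ones. At the 94 sites with a single summit in both lists the median was 12 bp, against 40 bp at the other 136. The offset had no side: the median signed distance was 0, and FLAG 1 lay at the lower coordinate at 113 of 230 sites. At the 62 sites with a GFP 3 peak, its summit lay a median of 17 bp from that of FLAG 1 and 18.5 bp from that of GFP 2. The largest of these, 494 bp from FLAG 1 on IV from 6096904 to 6098047, was in a peak of several summits, and there GFP 2 and GFP 3 lay 8 bp apart.

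**Figure D4:**
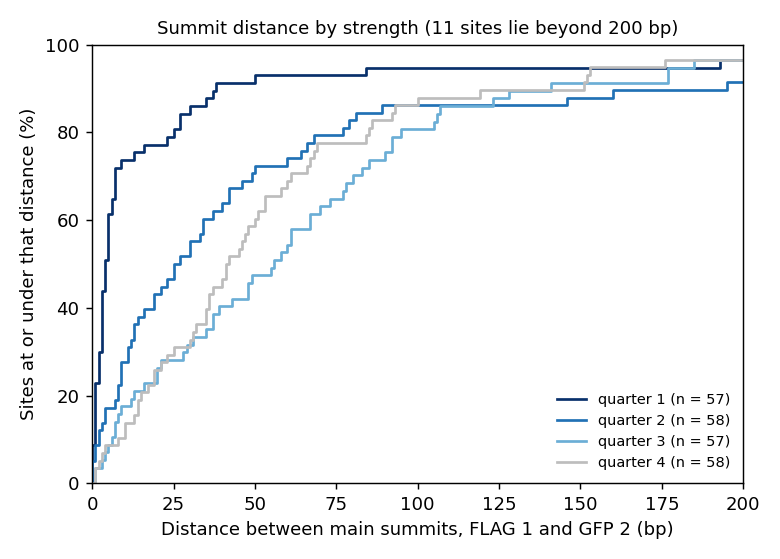
Cumulative share of shared sites (y axis, percent) by distance between the main summits of FLAG 1 and GFP 2 (x axis, bp), for the 4 groups by rank of fold, strongest first. The curve of the strongest group reaches 73.7% at 10 bp and those of the others 27.6% or less; 11 of the 230 sites lie beyond the axis.

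The overlaps were mostly more than a touch. The shorter peak lay wholly inside the longer at 164 of the 230 sites, the overlap was at least 12 bp at every site, and its median was 100 bp. GFP 2 peaks were the wider at these sites, with a median of 219.5 bp against 128 bp in FLAG 1, and 107 of them held more than 1 summit against 71 FLAG 1 peaks. In all, 15 GFP 2 peaks each covered 2 sites, 30 together, and 9 sites overlapped more than 1 GFP 2 peak. A pair of such sites on I, 2914305 to 2914366 and 2914447 to 2914748, lay under 1 GFP 2 peak with a fold of 10.4, and only the second, with a FLAG 1 fold of 6.26 against 2.82, had a GFP 3 peak. On III, 7155633 to 7155712 and 7155779 to 7155958 shared both a GFP 2 peak and a GFP 3 peak. Sites that share a peak are not independent places, and counted by GFP 2 peaks the total is 226.

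The sites were spread over all 6 chromosomes, with 53 on X (23.04%, interval 18.1 to 28.9), 38 on IV, 37 on II, 35 each on III and V and 32 on I. Of the low-background FLAG 1 peaks, 54.6% of those on X were shared (53 of 97, interval 44.7 to 64.2), against 29.7% on V, 29.9% on III, 30.2% on IV, 31.1% on I and 42.05% on II. In GFP 2 the shares ran from 33.3% on II to 43.8% on V and 44.2% on X. FLAG 1 peaks without a partner were on X in 10.5% of cases (44 of 419) and GFP 2 peaks without one in 19.8% (67 of 339). A GFP 3 peak stood at 17 of the 53 sites on X (32.1%, interval 21.1 to 45.5) and from 16.2% (II) to 34.3% (V) of those on the autosomes, intervals that overlap. Median folds on X were 3.67 in FLAG 1 and 4.89 in GFP 2, and on the autosomes they ran from 3.06 to 3.39 and from 4.04 to 4.85.

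**Figure D5:**
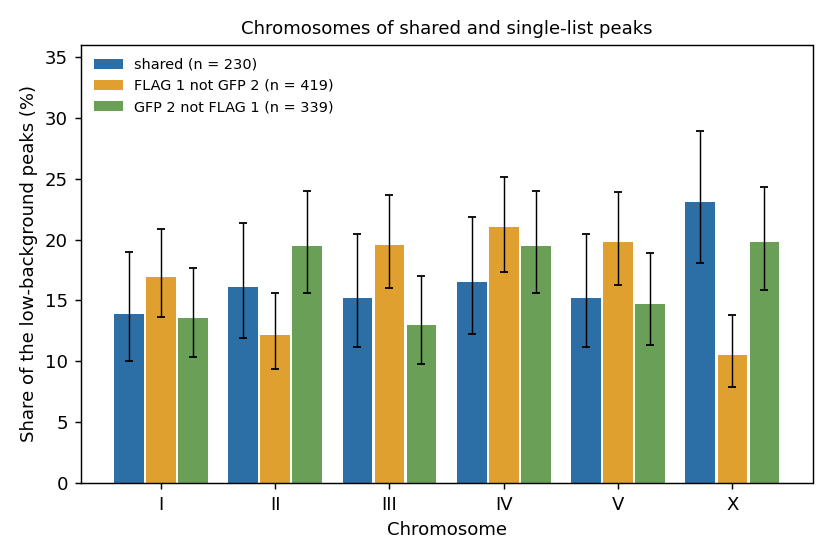
Share of peaks on each chromosome (y axis, percent) for the 230 shared sites, the 419 low-background FLAG 1 peaks without a GFP 2 partner and the 339 of GFP 2 without a FLAG 1 partner. Bars are shares within each class and lines 95% Wilson intervals (counting error only); on X the bars stand at 23.04%, 10.5% and 19.8%.

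Along 4 of the 5 autosomes, the middle held the most sites. With each chromosome cut into 3 equal parts between its first and last deposited peak, 80 of the 177 autosomal sites (45.2%) fell in the middle part, 57 in the left and 40 in the right. Chromosome I had another order, with 15 sites in the left part, 10 in the middle and 7 in the right. Single-list peaks had like shares in the middle, 42.4% in FLAG 1 and 43.8% in GFP 2. On X the right part held 25 of the 53 sites and the others 14 each. These parts follow the span of the peaks, as chromosome lengths were not used here.

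Some sites lay close together. Joining sites with summits at most 10000 bp apart gave 23 groups that held 59 of the 230 sites, and the other 171 stood alone. The 59 included all 30 sites that share a GFP 2 peak with another site. Some groups are thus wholly or partly pieces under 1 GFP 2 peak, and the gaps of shared sites below count those pieces. Single-list peaks lay close together at like rates: 36 of 224 gaps between neighbouring shared sites were at most 10000 bp (16.1%), against 75 of 413 among FLAG 1 peaks without a partner (18.2%) and 56 of 333 among those of GFP 2 (16.8%). The largest group, on IV between 6095201 and 6100133, held 6 sites within a summit span of 4691 bp. These had FLAG 1 folds of 3.06 to 5.93, GFP 2 folds of 3.29 to 12.9, and a GFP 3 peak at 3 of them. The next, on II between 8740380 and 8748971, held 5 sites with FLAG 1 folds of 2.69 to 4.38 and GFP 2 folds of 2.77 to 6.27, of which 2 had a GFP 3 peak. The 6 groups of 3 were on I from 5311622 to 5314906 and from 7656749 to 7658907, on II from 8016110 to 8016966 and from 11759195 to 11760545, on V from 9341318 to 9344444 and on X from 6737706 to 6744093. The median gap between neighbouring sites on a chromosome was 265307 bp, against 136889 and 164498 bp among the more numerous single-list peaks of FLAG 1 and GFP 2.

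The background limit cut few pairs near it. The 5 pairs just inside had a larger background of 2.23 to 2.65 times the genome mean, the nearest on V from 11769922 to 11770641 (2.65 times in FLAG 1, with folds of 4.75 and 9.82 in FLAG 1 and GFP 2). The other 4 inside were X from 10766134 to 10766533 (3.17 and 3.33), IV from 16656255 to 16656694 (3.83 and 7.0), V from 19522649 to 19522991 (2.71 and 3.64) and I from 12483439 to 12484120 (6.29 and 11.7), and all 5 inside had a GFP 3 peak. The 5 just outside stood at 3.20 to 3.62 times: X from 123 to 246 (folds 2.17 and 3.73), II from 3290702 to 3290793 (2.42 and 4.62), IV from 4705159 to 4705637 (3.71 and 5.53), IV from 85 to 139 (2.88 and 3.06) and V from 20924028 to 20924129 (2.71 and 2.94). Whether these 5 had a GFP 3 peak is not given here. Without the limit, 432 FLAG 1 peaks overlapped a GFP 2 peak, 197 of them at raised background in FLAG 1 and 5 at raised background in GFP 2 alone. A GFP 3 peak of any background stood at 59.7% of the 432, against 26.96% of the 230 shared sites.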

How the data were processed

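Each IP had its own peak list, and the input, with no list of its own, entered through the peak calling. MACS 2.1.0.20140616 was run by the authors on every IP separately, each time with the same input as control, per the file headers. It used a q-value limit of 0.05, 1 tag kept per position, the larger library sampled down and summits split, per the same headers. Fragment lengths were 53, 58 and 48 bp in FLAG 1, GFP 2 and GFP 3, near the tag size of 49 bp, and pileups, folds and widths rest on them. Positions are in ce10, which the submitters' processing notes name. The sources used here do not name the aligner. The deposited pileup is a signal in tags, the deposited fold enrichment a ratio, and the deposited significance a −log10 of the p-value or q-value.

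Each peak was represented by its summit of highest pileup. The background was computed as (pileup + 1)/fold − 1, and Poisson p-values computed from it matched the deposited −log10 p-values to within 6.08e-05. The genome mean was the tags kept times the fragment length over 90000000 bp, 7.18, 4.42 and 5.02 tags. Where a FLAG 1 peak overlapped several GFP 2 peaks, that of highest pileup gave the values. Percentages carry 95% Wilson intervals. Overlap and background code was tested on simulated data. The sites named are the first 12 by rank with and without a GFP 3 peak, the last 5, the 5 of largest percentile difference either way, those nearest the limit, and groups within 10000 bp, with examples from sites that share a peak. Some others, such as those of the broad FLAG 1 form and the narrow site with a GFP 3 peak, were chosen after their values were seen. The members and lists were chosen with earlier results of these data known. Gene and sequence context was not analysed here, as no ce10 genome was used. The software was scipy 1.17.1, pandas 2.3.3, numpy 2.4.6 and matplotlib 3.10.9 under Python 3.11.15.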

Additional observations from a re-analysis of the deposited data

How the results depend on the processing

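No paired analysis was possible because each list is 1 library and no result comes from a test. Of 123 alternative values over 12 results, 95 stayed within the interval of the value given (or within 1.5 times of a count). The rest moved with strength limits, the background limit or the libraries used. With both folds above 3, there were 143 sites, with median folds of 4.16 in FLAG 1 and 5.17 in GFP 2, a summit distance of 16 bp, a GFP 3 peak at 35.7% of all sites, at 39.4% of those above and 31.9% of those below the median rank, 12 narrow sites in the strongest group and a GFP 3 peak at 87.0% of the wider ones there. With both −log10 q above 5, these were 108 sites, 4.89, 5.90, 11 bp, 39.8%, 46.3%, 33.3%, 9 and 94.4%. Without a background limit there were 432 sites, with median folds of 2.45 and 3.18, a rho of 0.82, and a GFP 3 peak at 59.7% of sites, 30.6% of those above and 88.9% of those below the median rank, so the order by rank turned round (with the limit these were 40.9% and 13.04%). Leaving out a library gave 66 sites (FLAG 1 with GFP 3, without GFP 2, median FLAG 1 fold 3.68) and 67 sites (GFP 2 with GFP 3, without FLAG 1, median GFP 2 fold 6.0, 29.9% on X); the share on X without GFP 2 was 27.3%. The causes were not tested. The strongest group had no narrow site with a GFP 3 peak under any of the 12 alternatives run. Of these, the width limits of 100, 120 and 200 bp could not have given another result. The other alternatives that kept a background limit mostly trimmed or ranked anew the same sites. Only 1 narrow site among them had a GFP 3 peak, at rank 149, so they could hardly have given another result either. Without the limit, the strongest group of the 432 sites held 32 narrow sites. Limits of 100 and 120 bp kept 17 and 21 of the same 23 sites, and 200 bp kept the same 23. These width limits were chosen, like the narrow class and the use of the highest fold per peak, after seeing the data. FLAG 1 differs from the GFP libraries in both depth and antibody, which cannot be told apart. With the same antibody, GFP 3 kept more tags than GFP 2 (9404288 against 6858855) and had fewer low-background peaks (76 against 565). The share of tags removed as duplicates was 0.27 in GFP 3, 0.17 in GFP 2 and 0.15 in FLAG 1. Why the GFP 3 list was shorter was not tested.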
